A study of Drosophila melanogaster with 3 samples.

Results

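The genes of the mitochondrial respiratory chain and of ATP synthase were examined for chromatin peaks of the ETS-family transcription factor Ets21C in white prepupae of Drosophila melanogaster, the stage at which metamorphosis begins. Members were all nuclear protein-coding genes whose name begins with ND-, Sdh, UQCR, COX or ATPsyn, the prefixes of complexes I, II, III, IV and V. There were 88 of them among 13945 nuclear protein-coding genes, with 40 in complex I, 8 in complex II, 9 in complex III, 16 in complex IV and 15 in complex V. By name, 63 were subunit genes, 24 were duplicates of a subunit gene (mostly with a final L in the name, such as ATPsynbetaL), and Sdhaf3 was an assembly factor. Whole animals of both sexes were pooled, from a transgenic line (labelled d.ets6-GFP) that stably expresses Ets21C with GFP at its C terminus, and the chromatin immunoprecipitation used an antibody against GFP. There were 3 biological replicates of this 1 group, so no groups of samples are compared and no test is given. Untagged animals were not analysed here, and neither the driver of the tagged protein nor the state of the native gene is given in the sources used here. Because whole animals were used, a peak cannot be placed in a tissue.

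The respiratory chain passes electrons from NADH through complex I, or from succinate through complex II, by way of ubiquinone to complex III, then through cytochrome c to complex IV and oxygen. Complexes I, III and IV move protons across the inner mitochondrial membrane, and ATP synthase (complex V) makes ATP from the returning flow. All complexes except complex II are built from proteins of both the mitochondrial and the nuclear genome, and the nuclear genes are transcribed by ordinary nuclear promoters. In mammals, the ETS factor GABP binds the promoters of many of these genes, and Ets97D is its DNA-binding counterpart in Drosophila. Ets21C is a different member of the same family, known in Drosophila for its induction by stress and by JNK signalling.

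The stretches of genome under the summits of some of these peaks are given first. They are 101 bases long, centred on the summit of the optimal peak and read on the strand of the respiratory gene in Release 6 (dm6). The optimal list was made by the irreproducible discovery rate, which weighs agreement between replicates, but a peak in it need not be found in every replicate. ND-SGDH (3L:12138576-12138676, minus strand), COX7B (3L:17425302-17425402, plus strand) and ND-MNLL (X:7893810-7893910, minus strand) are 3 of the 4 members whose peak was found in every replicate. ND-ASHI (X:6679311-6679411, minus strand) had the highest peak whose sequence is shown. Capitals mark a short element, TTACATAA, TTACGTAA or TTATATAA, that is known from the promoters of nuclear genes for mitochondrial proteins in insects.
ND-SGDH: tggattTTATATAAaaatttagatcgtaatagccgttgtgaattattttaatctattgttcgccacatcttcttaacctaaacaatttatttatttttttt
COX7B: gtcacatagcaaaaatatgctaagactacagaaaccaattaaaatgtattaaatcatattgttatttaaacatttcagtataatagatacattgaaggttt
ND-MNLL: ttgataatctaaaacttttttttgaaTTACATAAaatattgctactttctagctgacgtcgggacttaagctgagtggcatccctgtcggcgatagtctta
ND-ASHI: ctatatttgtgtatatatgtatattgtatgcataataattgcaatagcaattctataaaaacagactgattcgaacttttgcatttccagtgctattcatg
All 4 summits lie between annotated start sites of a pair of genes that point away from each other (at ND-ASHI, an inner start site of its neighbour), and the GC content of the stretches was 22.8% for ND-SGDH, 23.8% for COX7B, 36.6% for ND-MNLL and 27.7% for ND-ASHI.

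A peak was assigned to a gene when its summit lay within 500 bp of any annotated transcription start site (TSS). The optimal list held 4505 peaks, the pooled list 27085, and the lists of replicates 1, 2 and 3 held 30000, 28006 and 30000. Each optimal peak at a member promoter had the same signal and the same rank in the pooled list, so counts from these lists are not independent of each other. The top list of a replicate is its 4505 peaks of highest signal, and the height of a replicate's peak is its signal divided by the median of that top list (40.5, 62.7 and 91.6 for replicates 1, 2 and 3). Signal values are the authors' own and are compared only within a list. The lowest signals in the whole lists of replicates 1, 2 and 3 were 11.5, 11.8 and 11.6. The smallest height that a list can hold was thus greatest in replicate 1 and least in replicate 3. The lists hold no reads, so the sequencing depth is unknown here.

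Optimal peaks were found at the promoters of 15 of the 88 members (17.0%), against 15.2% of all nuclear coding genes. These shares were close to each other, so as a class the respiratory genes did not stand apart from coding genes in general. The pooled list, which also holds weak peaks, gave 33 members (37.5%), against 36.6% of all coding genes. In the top lists, 6 members (6.82%) had a promoter peak in replicate 1, 18 (20.5%) in replicate 2 and 21 (23.9%) in replicate 3, against 8.68%, 17.4% and 18.6% of all coding genes in the same lists. The mean was 17.0 ± 9.02% of members and 14.9 ± 5.42% of all coding genes (SD, n = 3). The share of members was a little below that of all coding genes in replicate 1 and a little above it in replicates 2 and 3. These differences were small and were not tested, so no direction is read from them.

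By complex, the optimal list marked 9 of 40 genes of complex I (22.5%), 1 of 8 of complex II (12.5%), 0 of 9 of complex III, 3 of 16 of complex IV (18.8%) and 2 of 15 of complex V (13.3%). The share over all coding genes was 15.2%. Complex III also had no gene in the top lists of replicates 1 and 2, and 1 gene, UQCR-14, in that of replicate 3. These lists marked 8.68%, 17.4% and 18.6% of all coding genes. In the pooled list complex III had 4 of 9 genes (44.4%) and complex V 3 of 15 (20%), against 36.6% of all coding genes. Those 4 include the duplicate UQCR-6.4L, whose summit lay 496 bp upstream, near the edge of the window. With so few genes in each complex and no test, no order among the complexes is drawn from these counts.

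**Figure D1:**
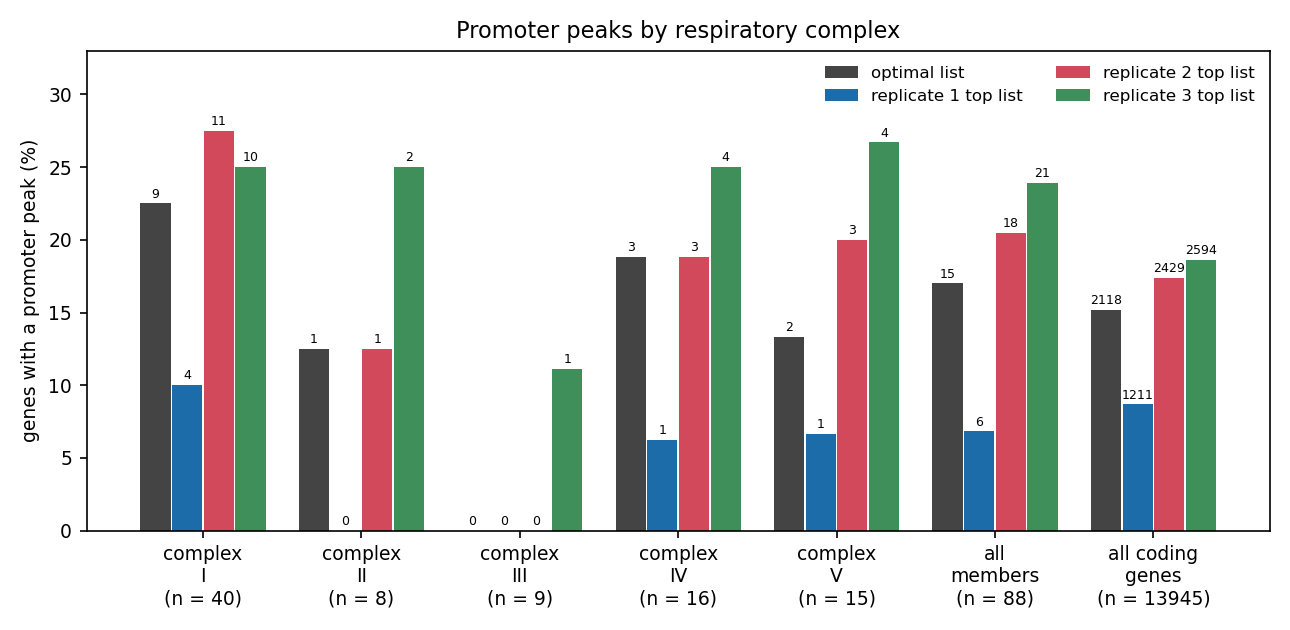
Share of genes with a promoter peak (y axis, percent) in each complex, in all 88 members and in all 13945 coding genes, for the optimal list and the top list of each replicate; numbers over the bars count genes. Complex I reached 9 of 40 genes in the optimal list and complex III 0 of 9, and in each of complexes I to V the bar of replicate 1 is no higher than those of replicates 2 and 3.

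Complex I, the NADH dehydrogenase, has a core of subunits shared with bacteria, among them the carriers of the flavin and the iron-sulfur clusters, surrounded by accessory subunits. Of the 7 nuclear core genes, 2 had an optimal peak (28.6%), and of the 27 accessory genes 7 did (25.9%), against 15.2% of all coding genes. The core genes were ND-51, whose product binds NADH and the flavin, and ND-20, whose product carries the iron-sulfur cluster next to ubiquinone. ND-51 (FBgn0031771, peak at 2L:6062792-6062891) had an optimal signal of 205, no peak in replicate 1 and heights of 0.868 and 0.888 in replicates 2 and 3. ND-20 (FBgn0030718, X:15986710-15987109) had an optimal signal of 118, no peak in replicate 1 and heights of 0.318 and 0.752 in replicates 2 and 3. Both peaks were therefore below the median top-list peak in the replicates that held them. The lowest signal in the optimal list was 109, and ND-20 was the member just above that limit.

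Among the accessory genes, the highest signals were at ND-MWFE and ND-ASHI, which encode small membrane-arm subunits. ND-MWFE (FBgn0085468, 2R:13158339-13158635) had an optimal signal of 612, no peak in replicate 1 and heights of 3.05 and 2.12 in replicates 2 and 3. ND-ASHI (FBgn0029888, X:6679219-6679512) had an optimal signal of 571, again no peak in replicate 1, and heights of 2.55 and 2.91. These were rank 340 and rank 401 of the 4505 optimal peaks, and neither appeared anywhere in the 30000 peaks of replicate 1 within 500 bp of the gene's TSS. ND-SGDH (FBgn0011455, 3L:12138496-12138695), at rank 946 with a signal of 350, was instead high in every replicate, with heights of 2.32, 2.31 and 1.33 (1.99 ± 0.570, SD, n = 3). ND-MNLL (FBgn0029971, X:7893660-7894059) had the low signal of 124 and heights of 0.577, 0.746 and 0.495 (0.606 ± 0.128, SD, n = 3). The sequences under these last 2 summits hold the insect element in capitals above.

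ND-42, ND-B22 and ND-B17.2 complete the complex I genes with an optimal peak, and none of them had a peak in replicate 1. ND-42 (FBgn0019957, 3R:22027218-22027617), an accessory subunit of the membrane arm facing the matrix, had a signal of 215 and heights of 1.19 and 0.943 in replicates 2 and 3. ND-B22 (FBgn0032511, 2L:13370844-13371243) had a signal of 127 and heights of 0.671 and 0.872. ND-B17.2 (FBgn0031436, 2L:2580017-2580416) also had a signal of 127, with heights of 0.625 and 0.749. Apart from ND-42 in replicate 2, these heights were below 1, the median of the top list.

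The other core genes of complex I lacked an optimal peak. ND-49, whose product forms part of the ubiquinone pocket, had a pooled signal of 89.9 and heights of 0.818, 0.793 and 0.309. ND-75, whose product carries several iron-sulfur clusters, had no peak in any list within 500 bp, and the nearest optimal summit lay 773 bp upstream. ND-24, the partner of ND-51 in the NADH-binding part, had no peak in replicate 1 and heights of 1.90 and 1.29 in replicates 2 and 3, yet no pooled promoter peak. ND-AGGG had the highest pooled peak among complex I genes outside the optimal list (signal 104), with heights of 0.836, 0.768 and 0.189, followed by ND-49 and by ND-B14.5A (66.2, with a height of 0.494 in replicate 3 only). ND-13A and the duplicate ND-20L are 2 of the 7 complex I genes (17.5%, against 32.7% of all coding genes) with no promoter peak in any of the 5 lists.

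Complex II, succinate dehydrogenase, also serves the citrate cycle, and its SdhC subunit anchors the enzyme in the membrane. SdhC (FBgn0037873, 3R:11209877-11210276) was its 1 gene with an optimal peak, at a signal of 145, with no peak in replicate 1 and heights of 0.940 and 0.791 in replicates 2 and 3. SdhA, the flavoprotein that oxidises succinate, had a peak in replicate 3 alone (height 0.213), and the nearest optimal summit was 973 bp upstream of its TSS. SdhB, the iron-sulfur subunit, had a pooled signal of 35.3 and a height of 0.258 in replicate 3 alone. SdhD, the other membrane anchor, had a pooled signal of 62.1 and heights of 0.213 and 0.724 in replicates 2 and 3. The assembly factor Sdhaf3 had a pooled signal of 85.7 and, unlike the subunit genes of this complex, a peak in every replicate (heights 0.495, 0.564 and 0.371). The duplicates SdhBL and SdhCL had no peak in any list.

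Complex III, the cytochrome bc1 complex, was without an optimal promoter peak. UQCR-14 had the highest pooled signal (84.2), from a peak in replicate 3 alone (height 0.694). UQCR-C2, a core protein of the matrix side, had a pooled signal of 52.4 and a height of 0.526 in replicate 3 alone. UQCR-11 had a pooled signal of 45.2 and low peaks in every replicate (heights 0.338, 0.426 and 0.148). UQCR-C1, the other core protein, had only a replicate 3 peak with a height of 0.169. These heights were all below 1. UQCR-11L, a duplicate, was the 1 gene of complex III with no peak in any list.

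Complex IV, cytochrome c oxidase, had 3 genes with an optimal peak, all for nuclear-encoded subunits around the catalytic core that mitochondrial DNA encodes. COX5A (FBgn0019624, 3R:11819317-11819716) had a signal of 252, no peak in replicate 1 and heights of 1.38 and 1.27 in replicates 2 and 3. COX7B (FBgn0040793, 3L:17425284-17425426) had a signal of 237 and heights of 1.62, 1.36 and 0.773 (1.25 ± 0.434, SD, n = 3). COX8 (FBgn0263911, 3L:21539335-21539734) had a signal of 166, no peak in replicate 1 and heights of 1.02 and 0.504. In replicate 1 only COX7B of these 3 genes had a peak, while COX5A had the highest of them in replicates 2 and 3. The replicates thus did not order these genes alike. Among the rest, COX6B had a pooled signal of 95.3 (height 0.818 in replicate 3 alone), the duplicate COX7AL2 78.7 (heights 0.368, 0.338 and 0.496) and COX7C 49.3 (heights 0.359 and 0.693 in replicates 2 and 3). COX4, in mammals the largest nuclear-encoded subunit, and the duplicate COX5BL had no peak in any list.

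Complex V had an optimal peak at ATPsynbeta and at ATPsynCF6. ATPsynbeta (FBgn0010217, 4:1031632-1032031), the catalytic subunit, had a signal of 155 and heights of 1.23, 0.641 and 0.654 (0.842 ± 0.337, SD, n = 3). ATPsynCF6 (FBgn0016119, 3R:23355971-23356370), coupling factor 6 of the peripheral stalk, had a signal of 165, no peak in replicate 1 and heights of 1.05 and 0.663 in replicates 2 and 3. ATPsynC, for the membrane ring that turns with proton flow, lay just under the optimal list with a pooled signal of 102, no peak in replicate 1 and heights of 0.516 and 0.626. ATPsynE had heights of 1.55 and 0.832 in replicates 2 and 3, no peak in replicate 1 and no pooled promoter peak. ATPsynB, for the peripheral stalk, and the duplicate ATPsynGL had no peak in any list.

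**Figure D2:**
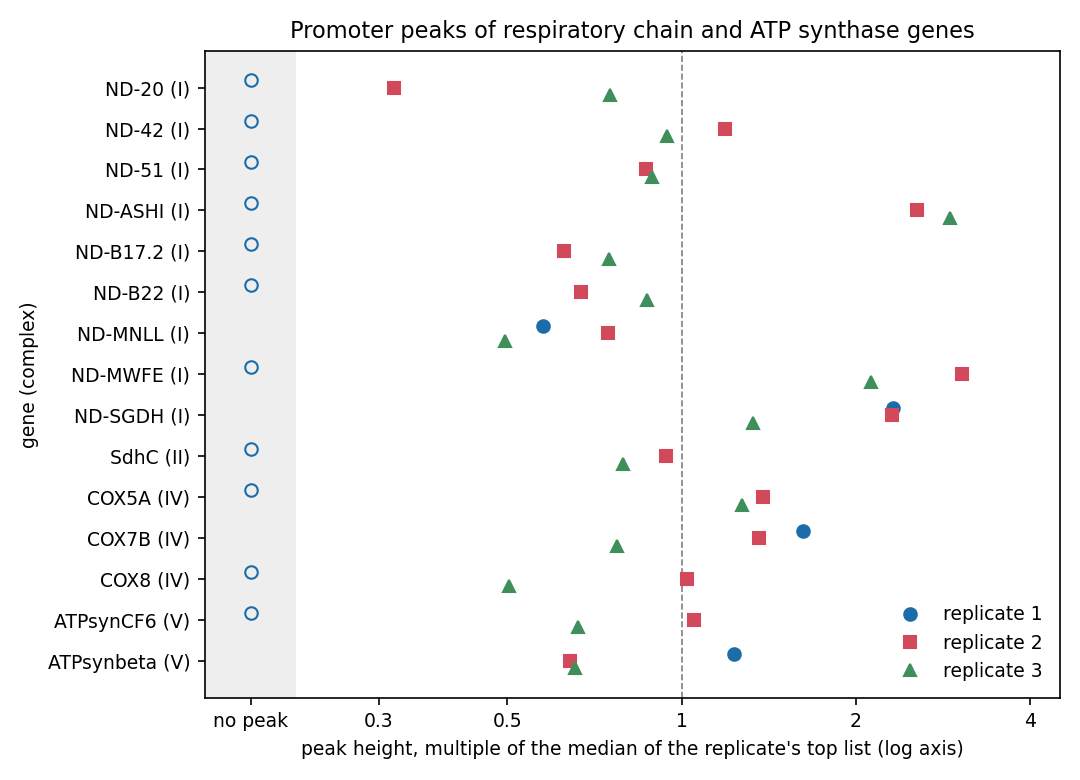
Height of the promoter peak in each replicate (x axis, log scale, in units of the median signal of the replicate's top list) for the 15 members with an optimal peak, with the complex in brackets; open circles in the grey strip mark a replicate with no peak within 500 bp of the TSS. Replicate 1 has a point for ND-MNLL, ND-SGDH, COX7B and ATPsynbeta and lies in the strip for the other 11.

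The peaks of the 15 members were modest in height. Their optimal signals ran from 118 to 612 with a median of 166, against a median of 226 and a range of 110 to 4103 for the 2118 coding genes with an optimal promoter peak. Of the 15, 4 had a promoter peak in the whole list of replicate 1 (26.7%), and all 15 had one in replicates 2 and 3. Among the 2118 coding genes, 51.7% had one in replicate 1, 97.6% in replicate 2 and 99.5% in replicate 3. The members with both an optimal peak and a peak in all 3 whole lists were thus ATPsynbeta, COX7B, ND-MNLL and ND-SGDH, 4 of 88, against 7.80% of all coding genes. The other 11 (73.3% of the 15) had peaks in replicates 2 and 3 only, against 45.8% of the coding genes with an optimal peak. The part that depth or library quality has in the low count of replicate 1 was not tested, and the lists hold no reads to show it.

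Most of the member peaks in the optimal list were thus peaks of replicates 2 and 3 without replicate 1. When optimal peaks were kept only if a summit within 100 bp was in the top lists of both other replicates, 12 members (13.6%) remained without replicate 1, against 10.8% of all coding genes. Without replicate 2 and without replicate 3 the count was 3 (3.41% each), against 5.94% and 6.49% of all coding genes, and these 3 were ATPsynbeta, COX7B and ND-SGDH both times. Both of these settings require a peak in the top list of replicate 1, which held 3 of the 15 members. Their counts therefore restate the absence of the others from that list and do not measure dependence on replicate 2 or 3. The share of members was above that of all coding genes in the setting without replicate 1, and below it in those without replicate 2 or 3. These shares rest on 12 and 3 members and were not tested, so no difference from all coding genes is read from them. Complex I kept 7 genes without replicate 1 and 1 gene in each of the other settings.

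In the whole lists, which reach down to weak peaks, 17 members (19.3%) had a promoter peak in replicate 1, 39 (44.3%) in replicate 2 and 58 (65.9%) in replicate 3, against 22.4%, 39.6% and 52.1% of all coding genes. No promoter peak in any of the 5 lists was found for 19 members (21.6%), against 32.7% of all coding genes. Replicate 1 alone held a peak at 7 members (7.95%), replicate 2 alone at 3 (3.41%) and replicate 3 alone at 23 (26.1%), against 6.65%, 5.29% and 18.8% of all coding genes. Of the 48 subunit genes without an optimal peak, 22 had a peak in replicate 3 alone (45.8%), against 21.8% of all coding genes without an optimal peak.

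Duplicates carried fewer peaks than subunit genes in the optimal, pooled and top lists, by counts that were not tested. Several of these duplicates are known in Drosophila for expression in the testis. None of the 24 duplicates had an optimal peak, against 15 of 63 subunit genes (23.8%) and 15.2% of all coding genes. None was in the top list of replicates 1, 2 or 3, against 6, 18 and 21 of the subunit genes (9.52%, 28.6% and 33.3%) and 8.68%, 17.4% and 18.6% of all coding genes. In the pooled list, 3 duplicates (12.5%) had a promoter peak, against 29 subunit genes (46.0%) and 36.6% of all coding genes. These 3 were COX4L, COX7AL2 and UQCR-6.4L. No list held a peak at 12 duplicates (50%), against 7 subunit genes (11.1%) and 32.7% of all coding genes.

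Weak peaks at the duplicates did not follow the replicates in the way those at the subunit genes did. In the whole list of replicate 1, 8 duplicates (33.3%) and 8 subunit genes (12.7%) had a promoter peak, against 22.4% of all coding genes. In that of replicate 2, the counts were 5 duplicates (20.8%) and 33 subunit genes (52.4%), against 39.6%. In that of replicate 3 they were 2 duplicates (8.33%) and 55 subunit genes (87.3%), against 52.1%. The duplicates with a replicate 1 peak were COX4L, COX6AL2, COX7AL2, ND-49L, ND-51L2, ND-B14.5AL, SdhAL and UQCR-6.4L, with heights from 0.311 at ND-51L2 to 0.561 at COX4L. All but COX4L (rank 5451) ranked from 16838 at COX7AL2 to 25187 at ND-51L2 among the 30000 peaks of replicate 1. The replicate 3 peaks were at COX7AL2 (height 0.496, rank 6127) and ATPsynepsilonL (0.190, rank 18436). The lower limit of height was greater in replicate 1 than in replicate 3, so these heights are not compared across the replicates. Among the duplicates, replicate 1 thus held the most of these peaks and replicate 3 the fewest, and among the subunit genes the reverse, which was also the order for all coding genes. These counts were not tested.

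**Figure D3:**
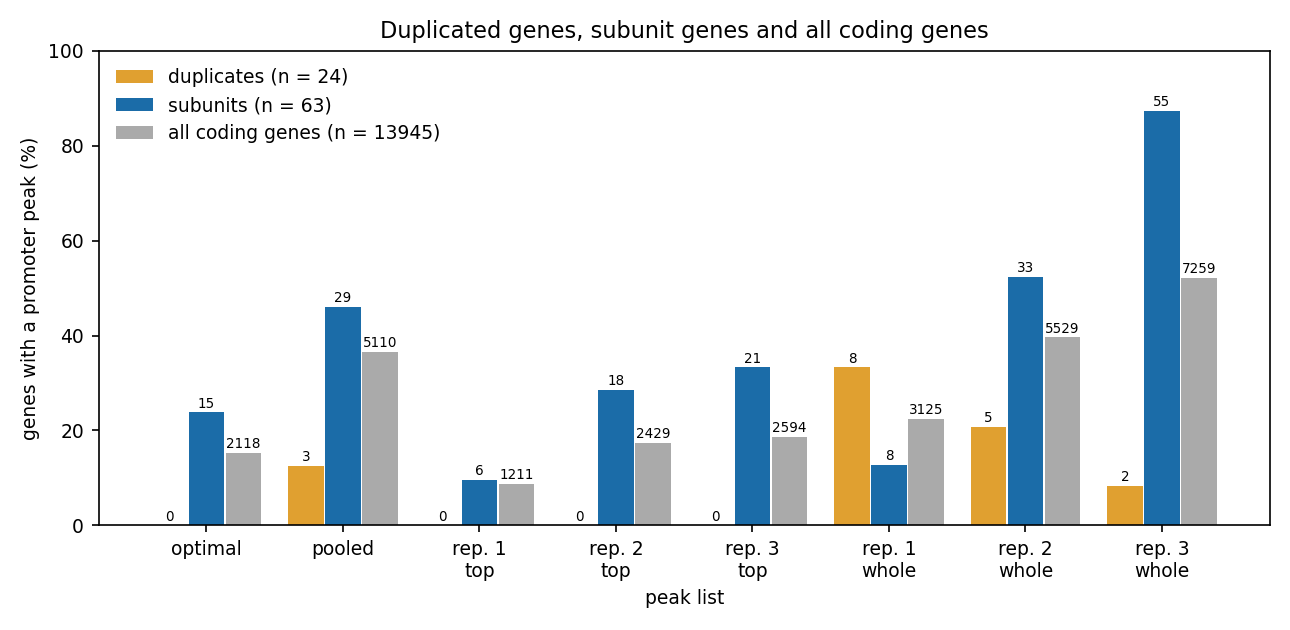
Share of duplicates (n = 24), subunit genes (n = 63) and all coding genes (n = 13945) with a promoter peak in each list (y axis, percent); numbers over the bars count genes. Duplicates have no bar in the optimal and top lists, and among the whole lists they exceed the subunit genes in replicate 1 only (8 of 24, against 8 of 63).

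These groups of genes also differ in their surroundings. Another coding gene had a TSS within 500 bp of a TSS of 3 duplicates (12.5%), of 38 subunit genes (60.3%) and of 30.9% of all coding genes. Members with such a neighbour had an optimal peak in 13 of 41 cases (31.7%), against 27.2% of all coding genes with a neighbour. Members without one had an optimal peak in 2 of 47 cases (4.26%), against 9.84% of all coding genes without a neighbour. Within the genes that had no neighbour, 0 of 21 duplicates had an optimal peak, against 2 of 25 subunit genes (8.00%). With a neighbour, 0 of 3 duplicates had one, against 13 of 38 subunit genes (34.2%). The gap between duplicates and subunit genes in the optimal list was thus smaller among genes without a neighbour than over all members. In other lists a gap remained among the genes without a neighbour. The pooled list held 14.3% of these duplicates against 44.0% of these subunit genes, and the whole list of replicate 3 held 4.76% against 68.0%. The whole list of replicate 1 went the other way (38.1% against 12.0%). The part that neighbours have in these gaps was not tested.

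The neighbours also went with the weak peaks. In the whole list of replicate 3, all 38 subunit genes with a neighbour had a promoter peak, against 74.2% of all coding genes with a neighbour. Of the 25 subunit genes without a neighbour, 17 did (68.0%), against 42.1% of all coding genes without one. Of the 9 genes of complex III, 3 had a neighbour, against 20 of 40 in complex I and 30.9% of all coding genes. Those 3 (UQCR-6.4, UQCR-C1 and UQCR-Q) had a peak in replicate 3 alone. So did UQCR-14 and UQCR-C2, which had no neighbour, and UQCR-11, also without one, had a peak in every replicate. The subunit genes of complex III thus had a replicate 3 peak with or without a neighbour.

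The 13 peaks at members with a neighbour were each shared with a gene on the opposite strand. At 12 of the 13, the summit lay between the start sites of the pair that were nearest to it. Measured from the outermost start site of each gene, it lay upstream of both genes at 8, since ATPsynbeta, COX5A, Fum1 (the partner of ND-ASHI) and TppII (the partner of ND-MWFE) also have start sites further out. Under the nearest start sites, the exception was ND-42, whose summit was 291 bp upstream of its TSS and 62 bp inside its neighbour Cchl, the gene for cytochrome c heme lyase. ND-MNLL also shares its start site with CG45089, annotated on the same strand. ND-20 and ND-B22 were the members whose optimal peak was assigned to no other coding gene. Such sharing held for 86.7% of the 15 members, against 55.3% of the 2118 coding genes with an optimal promoter peak.

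Some of the gene pairs join related functions and others do not. The ND-ASHI peak lay 243 bp upstream of ND-ASHI and 279 bp upstream of Fum1, the fumarase gene of the citrate cycle. The COX8 peak lay 88 bp upstream of COX8 and 327 bp upstream of VhaM9.7-b, which encodes a subunit of the vacuolar proton pump. Other partners were Sec13 (a coat protein of vesicles leaving the endoplasmic reticulum) for ATPsynCF6, Sec3 (an exocyst subunit) for COX7B, Arpc5 (a subunit of the actin-nucleating Arp2/3 complex) for ND-B17.2, and Tctp for SdhC. The remaining partners were CG13994 for ND-51, p115 for ND-MNLL, TppII for ND-MWFE, RhoGAP68F for ND-SGDH, glo for COX5A and CG11076 for ATPsynbeta. At ND-42, ND-MWFE and SdhC the neighbour's TSS was closer to the summit than the member's, and with each peak given to its nearest gene 12 members remained. This count includes ND-MNLL and ATPsynCF6, where a neighbour's TSS was equally close, and was 10 without them. A peak in such a window cannot be told apart as belonging to 1 of the genes.

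All 15 summits lay upstream of the member's nearest TSS, from 18 bp at ND-B22 to 291 bp at ND-42 with a median of 88 bp. Among the 2118 coding genes, 88.4% of summits were upstream, with a median of 145 bp upstream over all of them. Several of these genes have more than 1 annotated TSS, and from the outermost one 12 of the 15 summits (80%) were upstream, against 72.0% of the 2118. The other 3 lay downstream of it, by 66 bp at ND-B22, 158 bp at COX5A and 348 bp at ATPsynbeta. Just outside the 500 bp window were the optimal summits nearest to COX7AL2 (534 bp downstream), ND-75 (773 bp upstream), ATPsynE (838 bp downstream) and SdhA (973 bp upstream). A window of 1000 bp would add these 4 genes, for 19 members (21.6%), against 18.1% of all coding genes. A window of 250 bp left out ND-42 alone, for 14 members (15.9%), against 11.8%.

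**Figure D4:**
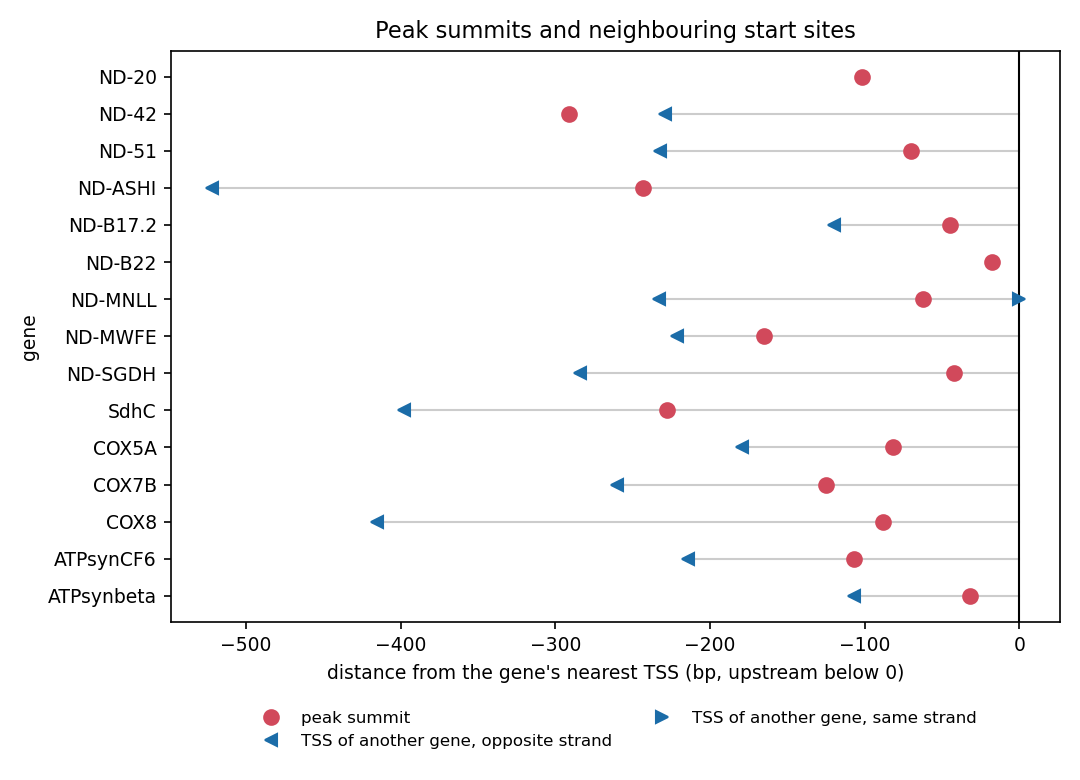
Position of the optimal summit (circle) and of the start sites of the genes that share the peak (triangles) relative to the nearest TSS of each of the 15 members (x axis, bp, upstream below 0); start sites further out are not drawn. The summits lie between 18 and 291 bp upstream of that TSS, and all but those of ND-20, ND-B22 and ND-42 lie between 2 opposed start sites of those drawn.

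Short words were searched on both strands in the 201 bases centred on each summit. The ETS words CCGGAAGT and CCGGAAGC were in 0 of the 15 windows at members, against 0.397% of the 1511 other optimal summits at coding promoters. The insect element TTACATAA, TTACGTAA or TTATATAA was in 2 windows (13.3%), those of ND-MNLL and ND-SGDH, against 5.56%. The word TATCGATA, bound by Dref, was in 1 window (6.67%), that of SdhC, against 6.15%, and GGTCACACT, bound by M1BP, was in 0, against 1.85%. These are counts of 0 to 2 windows, so no difference from the other promoters is read from them. The stretch at SdhC (3R:11210141-11210188, minus strand), with the Dref word in capitals, lies 88 bp from the summit, on the side of Tctp.
SdhC: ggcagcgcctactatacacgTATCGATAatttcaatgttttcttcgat
GC content in the 101 bases around the summit was 32.2 ± 7.05% at the members (SD over 15 windows), against 33.3 ± 8.70% at the other coding promoters.

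The same words were counted in a fixed window, from 150 bases upstream to 50 bases downstream of the outermost TSS, for all genes whether or not they had a peak. GGTCACACT was in 13 of 88 member promoters (14.8%), against 5.50% of all coding promoters. Of the 13, 10 were among the 48 subunit genes without an optimal peak (20.8%) and the other 3 were COX5A, COX7B and ND-MWFE. TATCGATA was in 6 member promoters (6.82%), against 8.22%. These were 6 of the 48 subunit genes without an optimal peak (12.5%), against 0 of the 15 members with one. The insect element was in 4 (4.55%), against 2.76%: ND-42, ND-MNLL and ND-SGDH, which had an optimal peak, and ND-49, which had a pooled peak. The ETS words were in 0 member promoters, against 0.416%. None of the 24 duplicate promoters held any of these words. These counts are small and were not tested, so no difference between members with and without an optimal peak is read from them.

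Genes of the same pathway under other names, taken from 5 further lists, had an optimal promoter peak in 10 of 47 cases (21.3%), against 15.2% of all coding genes. All but blw, Idh3b and mtSSB of these 10 share the peak with another coding gene, so those peaks too cannot be given to 1 gene. Of 11 other subunits and electron or nucleotide carriers, 3 did (27.3%). Cyt-c-d, a cytochrome c gene that shares its peak with CG31808, had a signal of 626 and heights of 3.55, 3.30 and 2.82, and blw, which encodes the alpha subunit of ATP synthase, had a signal of 557 and heights of 3.21, 2.74 and 2.69. Both were high in every replicate and higher than ATPsynbeta, the partner of blw in the catalytic head. levy, for subunit 6A of complex IV, shares its peak with wmd and had a signal of 197, no peak in replicate 1 and heights of 1.26 and 0.685. The other cytochrome c gene, Cyt-c-p, had a peak in replicate 3 alone (0.385), and Ant2, for an ADP/ATP carrier, had heights of 0.293 and 0.268 in replicates 2 and 3.

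Of 7 assembly factor genes, 1 had an optimal peak (14.3%, against 15.2% of all coding genes). This was CIA30, for a complex I assembly factor, at a peak shared with CG7601, with a signal of 1457, rank 55 of the optimal list, and heights of 10.5, 6.49 and 6.90. Among the 15 members, the greatest height in any replicate was 3.05, at ND-MWFE. Scox and Cox10, which serve the copper and heme centres of complex IV, had no peak in any list.

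Of 11 citrate cycle genes, 3 had an optimal peak (27.3%, against 15.2% of all coding genes). Fum1 shares the peak of ND-ASHI, Idh3g (peak shared with CG4743) had a signal of 395 with heights of 2.46, 2.44 and 1.57, and Idh3b had a signal of 147 with heights of 0.662 and 0.837 in replicates 2 and 3. Idh3a, which encodes the catalytic subunit of the same isocitrate dehydrogenase, had a peak in replicate 3 alone (0.291). mAcon1, for mitochondrial aconitase, had heights of 1.54 and 2.09 in replicates 2 and 3 without a pooled promoter peak.

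Of 10 genes for mitochondrial DNA upkeep and transcription, 1 had an optimal peak (10%, against 15.2% of all coding genes). This was mtSSB, with a signal of 205 and heights of 1.30 and 1.10 in replicates 2 and 3. TFAM, which packages mitochondrial DNA, and PolG1, the catalytic subunit of its polymerase, had no peak in any list. Of 8 nuclear regulators, 2 had an optimal peak (25.0%, against 15.2%). ERR, an oestrogen-related receptor that directs metabolic genes, had a signal of 461 with heights of 2.90 and 1.21 in replicates 2 and 3. Dref had a signal of 202 with heights of 1.00 and 1.5 in the same replicates, and neither gene had a peak in replicate 1. ERR shares its peak with Atg18a, and Dref with RpL13. Ets97D had a peak in replicate 3 alone (0.455), and ewg, the counterpart of the mammalian respiratory factor NRF1, had a pooled signal of 55.7 and a height of 0.651 in replicate 3 alone.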

How the data were processed

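Peak lists of 3 biological replicates, a pooled list and an optimal list, all on dm6, were used. By the notes deposited with the samples, replicate and pooled lists were made from alignments with a control alignment, and the optimal list by the irreproducible discovery rate. The sources used here name no aligner or peak caller, and no versions or settings. The signal values are those the authors deposited with each peak, and each list has its own scale. The labels do not say more than biological replicate, so the spread between replicates may be partly technical.

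Coding genes on 2L, 2R, 3L, 3R, 4 and X came from Ensembl release 115, and sequence from the RefSeq Release 6 genome. Peaks on other sequences (23 of the 4505 optimal peaks) were assigned to no gene, and the others lie within the lengths of these arms. Coordinates are 1-based. The dm3 lists were not used. Assignment of peaks was tested on simulated data. Python 3.11.15, NumPy 2.4.6 and Matplotlib 3.10.9 were used.

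The members, gene lists and words were chosen with earlier results of these data known. Named were all members with an optimal peak, 8 core subunits, and in each complex up to 3 others by pooled signal and 2 without a peak, and from the other pathway lists up to 4 by optimal signal and 2 without an optimal peak. ND-24, ATPsynE, mAcon1, Idh3a and genes listed by a shared replicate pattern, word or position were named after their values were seen. Nc73EF and mtRNApol matched no coding gene. Alternatives covered the TSS window, the TSS used, the assignment, the list length, the genes counted and each replicate left out.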

Additional observations from a re-analysis of the deposited data

How the results depend on the processing

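The count of 15 members with an optimal promoter peak was 14 and 19 with windows of 250 and 1000 bp, 15 with the outermost TSS only or with subunit genes only, and 12 with each peak given to its nearest gene, or 10 without the ties at ND-MNLL and ATPsynCF6. Kept to peaks above the median of the optimal list, it was 7 (7.95%, against 9.18% of all coding genes), with 5 in complex I, 0 in complex II and 0 in complex V. Complex II had 2 genes with a window of 1000 bp and 0 with the nearest gene only. Complex III stayed at 0 in each of these settings. With a replicate left out, counts ran from 3 to 12 for all members, from 1 to 7 in complex I, from 0 to 1 in complex II, from 1 to 2 in complex IV and from 1 to 2 in complex V. The peaks kept were still those selected with all 3 replicates in use, and leaving out replicate 2 or 3 required a peak in the top list of replicate 1. The mean top-list count of 15.0 was 38.0 with whole replicate lists and 5.33 with the 2000 highest peaks of each, and it ran from 12.0 to 19.5 with a replicate left out. The pooled count of 33 was 28 and 38 with windows of 250 and 1000 bp. Apart from the settings that remove peaks, the cause of these shifts was not tested. No paired analysis was possible because there is 1 group. The counts are small, the depth is unknown, and no control library was analysed here, so weak peaks cannot be set against a background.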

Other observations

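ND-24 and ATPsynE were in the top lists of both replicate 2 and replicate 3 at their promoters, with heights of 1.90 and 1.29 at ND-24 and of 1.55 and 0.832 at ATPsynE, and had no pooled promoter peak. The nearest pooled summit was 4251 bp from the TSS of ND-24 and 838 bp from that of ATPsynE. Of 14 members in both of these top lists, these 2 lacked a pooled peak (14.3%), against 200 of 1817 coding genes (11.0%).

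Optimal peaks also lay inside members, more than 500 bp from their start sites. ND-39, an accessory subunit gene of complex I, held one with a signal of 366 (3L:20493571-20493684), 1580 bp downstream of its TSS, higher than the promoter peaks of all members but ND-ASHI and ND-MWFE. ND-15 held one with a signal of 116 (2L:120949-121348). The duplicate COX7AL2 had 2 such summits, with signals of 197 and 133, 534 bp downstream and 585 bp upstream of a TSS.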
